A study of Homo sapiens with 12 samples.

Results

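SALL3, SFRP1, NELL2, SPOCK1, CHRDL1, ALDH1A2, GFRA3 and BEX5 are 8 of the 27011 genes counted in HEK293T cells, a human embryonic kidney line that carries the SV40 large T antigen. They were listed as secreted and patterning genes, chosen by how far their measured mRNA and footprint counts in 4EHP-null cells lay from those in WT cells. The 4EHP-null values below therefore describe that choice and were given no test. The choice was a list of names with no threshold, so no gene sat just inside or just outside a limit. In 4EHP-null RNA-seq 7 of the 8 genes were lower than in WT and 1, GFRA3, was higher.

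3 genotypes of the line were studied: 4EHP-null cells, labelled as lacking the product of EIF4E2, GIGYF1/2-null cells, labelled as lacking GIGYF1 and GIGYF2, and WT cells. Each genotype had 2 RNA-seq libraries of total RNA and 2 Ribo-seq libraries, 12 in all, from untreated cells plated 24 h before harvest. The series' design calls the replicates biological. Neither the making of the null alleles nor the number of clones behind each line is stated in the labels, so a difference of one genotype and a difference of one clone cannot be told apart. A p-value here sets a difference between genotypes against the spread between these libraries only.

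4EHP is a relative of the translation factor eIF4E that binds the mRNA cap without recruiting the rest of the initiation machinery. GIGYF1 and GIGYF2 are scaffold proteins that hold 4EHP and link it to RNA-binding proteins and decay factors, and the complex is known for repressing the translation and promoting the decay of the mRNAs it is brought to. Several of the 8 genes encode proteins that act outside the cell on Wnt, BMP, Slit/Robo or GDNF-family signalling, and ALDH1A2 makes retinoic acid, the ligand of the retinoid receptors. These pathways pattern the early embryo, the kidney and the nervous system.

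RefSeq promoter windows of build GRCh38.p14 were at hand for 5 of the 8 genes, SALL3, CHRDL1, ALDH1A2, GFRA3 and BEX5. The 250 bases before the annotated start are shown for 3 of them that stand for the patterns described here: SALL3, whose mRNA was nearest to absent in 4EHP-null cells, CHRDL1, which was lowest in 4EHP-null and highest in GIGYF1/2-null cells, and GFRA3, the gene that was higher in 4EHP-null cells. They lie at chr18:78979568-78979817 on the plus strand, chrX:110795818-110796067 on the minus strand and chr5:138274622-138274871 on the minus strand. Each is written 5′ to 3′ on the gene's strand, and capitals mark matches on either strand to the TATA box TATAAA, the CCAAT box CCAAT, the GC box GGGCGG, the E-box CACGTG or the AP-1 site TGACTCA.
SALL3: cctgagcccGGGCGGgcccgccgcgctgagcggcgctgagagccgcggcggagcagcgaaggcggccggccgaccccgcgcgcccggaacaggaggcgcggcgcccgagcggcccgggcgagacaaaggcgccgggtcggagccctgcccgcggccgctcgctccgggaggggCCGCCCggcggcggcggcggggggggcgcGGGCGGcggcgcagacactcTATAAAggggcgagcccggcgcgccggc
CHRDL1: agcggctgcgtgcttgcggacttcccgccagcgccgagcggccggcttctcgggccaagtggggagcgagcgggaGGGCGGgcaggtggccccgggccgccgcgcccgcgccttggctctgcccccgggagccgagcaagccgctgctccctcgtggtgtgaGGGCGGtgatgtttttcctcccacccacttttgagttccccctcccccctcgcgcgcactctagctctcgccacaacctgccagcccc
GFRA3: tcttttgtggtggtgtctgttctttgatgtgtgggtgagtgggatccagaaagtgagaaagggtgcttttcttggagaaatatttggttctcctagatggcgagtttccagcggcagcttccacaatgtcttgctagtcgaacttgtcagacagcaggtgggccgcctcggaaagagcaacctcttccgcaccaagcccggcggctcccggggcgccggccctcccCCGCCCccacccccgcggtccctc

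The SALL3 window was 84.4% G or C with 49 CpG dinucleotides, the CHRDL1 window 73.2% with 27, and the GFRA3 window 59.2% with 14. Of the 2 windows not printed, that of ALDH1A2 was 72.8% with 33 and that of BEX5, also low in 4EHP-null cells, 52.8% with 10. Over the 35116 promoter windows of the table the medians were 58.0% and 11. SALL3 held the TATA letters from 28 to 23 bases before its start, and 10.7% of all windows held them. A GC box lay in the windows of all 5 genes, 3 of them in SALL3, 2 each in CHRDL1, ALDH1A2 and BEX5 and 1 in GFRA3, against 42.6% of all windows with at least 1. CCAAT letters lay in the windows of ALDH1A2, at 62 to 58 bases before the start, and BEX5, which held 2, against 32.0% of all windows. The E-box and AP-1 letters, in 6.35% and 4.20% of all windows, were not in the windows of these 5 genes. Among these 5, the 4 genes that were low in 4EHP-null cells and the gene that was high all held the GC box letters. The matches describe these windows without locating a binding site.

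Total counts ran from 26143118 to 38175701 per RNA-seq library and from 6536493 to 10816080 per Ribo-seq library. EIF4E2 was measured at 51.0 and 46.7 CPM, a count divided by its library's size, in 4EHP-null RNA-seq, against 123.0 and 123.1 CPM in WT (log2 fold change -1.33 ± 0.08 SE, edgeR quasi-likelihood test, adjusted p = 5.92e-07). Its footprints were at 16.85 and 12.13 CPM in 4EHP-null cells, against 38.1 and 33.49 CPM in WT (log2 fold change -1.31 ± 0.18, edgeR adjusted p = 0.00284). Part of the EIF4E2 mRNA and footprints thus remained in the line labelled null. GIGYF1 mRNA was lower in GIGYF1/2-null cells, at 22.4 and 26.0 CPM, against 41.2 and 40.8 CPM in WT (adjusted p = 6.91e-04), while GIGYF2 had 96.7 and 81.8 CPM, against 81.2 and 66.1 CPM in WT (adjusted p = 0.124). GIGYF1 footprints were at 1.70 and 2.74 CPM in GIGYF1/2-null cells, against 8.69 and 6.72 CPM in WT (edgeR adjusted p = 0.012). GIGYF2 footprints were at 81.6 and 51.7 CPM, against 90.8 and 63.9 CPM in WT, and were not called (adjusted p = 0.671). A count over a whole gene does not show the reading frame or where in the gene the reads lie. What these GIGYF2 values mean for the label was not tested. The 12 listed kidney and neuronal markers of the line, of which PAX8 stayed under 1 CPM in every RNA-seq library, summed to 790 to 920 CPM in 4EHP-null, 997 to 1262 CPM in GIGYF1/2-null and 1123 to 1287 CPM in WT RNA-seq. VIM held the largest part of each sum, at 597 ± 78.5 CPM in 4EHP-null, 529.5 ± 113 CPM in GIGYF1/2-null and 740 ± 79.2 CPM in WT cells. Some of them differed in level by genotype, and not in 1 direction. NEFM, a neurofilament gene, averaged 47.7 ± 4.33 CPM in 4EHP-null, 261 ± 54.5 CPM in GIGYF1/2-null and 193 ± 26.3 CPM in WT cells (SD, n = 2 each). The keratin genes KRT8 and KRT18 were higher in both null lines than in WT cells, and highest in GIGYF1/2-null cells. KRT8 averaged 25.9 ± 2.14 CPM in 4EHP-null, 31.2 ± 0.91 CPM in GIGYF1/2-null and 13.05 ± 0.06 CPM in WT cells. KRT18 averaged 57.5 ± 0.71 CPM in 4EHP-null, 70.4 ± 2.73 CPM in GIGYF1/2-null and 48.8 ± 1.22 CPM in WT cells. The 12 listed markers of other cell types summed to 5.01 to 5.49 CPM in 4EHP-null, 7.03 to 7.19 CPM in GIGYF1/2-null and 4.37 to 5.06 CPM in WT cells, with the leukocyte gene PTPRC at 0 in every RNA-seq library, and the part of either list in the results below was not tested. In bulk counts such as these, fewer cells that express a gene and less RNA per cell cannot be told apart.

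The first question is how far each gene's mRNA and its ribosome footprints stood from WT in each null line. Counts were scaled to CPM with TMM library sizes. All 8 genes passed the filter on low counts in both assays, the 7 low ones through the GIGYF1/2-null and WT libraries in which they are higher, and GFRA3 mainly through the 4EHP-null libraries. In WT mRNA, per kilobase of gene model, ALDH1A2 stood highest at 8.87 CPM per kb, followed by BEX5 at 6.98, NELL2 at 5.92, SFRP1 at 2.64, SALL3 at 1.26, SPOCK1 at 1.03, CHRDL1 at 0.654 and GFRA3 at 0.403 CPM per kb. ALDH1A2 was thus at percentile 57.7 of the 15637 genes tested and GFRA3 at percentile 12.2. The genes span low to middling levels in WT cells.

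**Figure D1:**
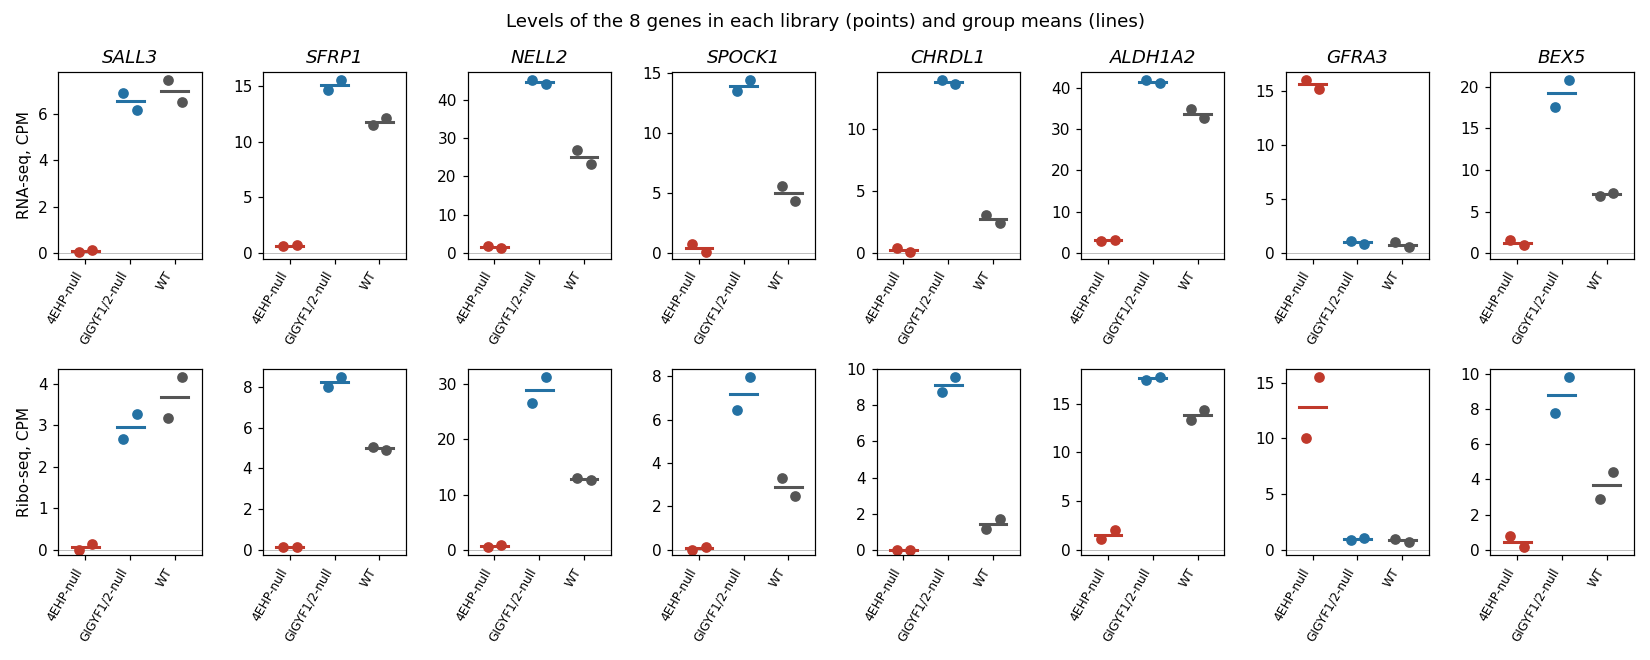
CPM of the 8 genes in each RNA-seq library (upper row) and Ribo-seq library (lower row) for 4EHP-null, GIGYF1/2-null and WT cells, with points for the 2 libraries of a group and a line at their mean; each panel has its own linear axis. For NELL2, SPOCK1, CHRDL1 and BEX5 the 4EHP-null points lie lowest and the GIGYF1/2-null points clearly highest, SALL3 overlaps between GIGYF1/2-null and WT cells, and GFRA3 is high in 4EHP-null cells, at 16.0 and 15.2 CPM of mRNA.

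SALL3 encodes a zinc-finger transcription factor of the spalt family, which acts in limb, nerve and kidney patterning. Its mRNA was read 1 and 4 times in the 4EHP-null libraries, 218 and 212 times in the GIGYF1/2-null libraries and 220 and 242 times in the WT libraries. That is 0.0306 and 0.152 CPM in 4EHP-null, 6.90 and 6.20 CPM in GIGYF1/2-null and 7.46 and 6.51 CPM in WT cells. The 4EHP-null libraries stood far below all others, while GIGYF1/2-null and WT libraries overlapped. On the log2 scale 4EHP-null cells differed from WT by -6.29 ± 0.36 (SE), place 11 from the most negative of the 15637 genes tested. The value was -5.48 without 4EHP-null RNA-seq replicate 1 and -7.67 without 4EHP-null RNA-seq replicate 2. Footprints were low in the same genotype, at 0 and 1 in 4EHP-null, 22 and 37 in GIGYF1/2-null and 22 and 44 in WT libraries. The summed footprint level in 4EHP-null cells was 0.0193 times that in WT cells (95% counting interval 4.82e-04 to 0.112). Intervals of this kind cover counting error only. In GIGYF1/2-null cells SALL3 did not pass the test, with a log2 fold change of -0.09 ± 0.19 for mRNA (edgeR adjusted p = 0.820) and -0.32 ± 0.31 for footprints (adjusted p = 0.648), and the sign of the mRNA value turned to 0.006 without WT RNA-seq replicate 1.

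SFRP1 is a secreted frizzled-related protein that binds Wnt ligands outside the cell and dampens their signal. It was measured at 0.672 and 0.686 CPM of mRNA in 4EHP-null cells, 14.7 and 15.6 CPM in GIGYF1/2-null cells and 11.5 and 12.1 CPM in WT cells. The 4EHP-null level was -4.11 ± 0.18 from WT on the log2 scale, and the 3 groups did not overlap. Footprints numbered 1 and 1 in 4EHP-null, 66 and 96 in GIGYF1/2-null and 35 and 52 in WT libraries, so the summed 4EHP-null footprint level was 0.0293 times WT (counting interval 0.00350 to 0.109). SFRP1 in GIGYF1/2-null cells lay 0.35 ± 0.12 above WT for mRNA (edgeR adjusted p = 0.0838) and 0.73 ± 0.21 for footprints (adjusted p = 0.108), and neither passed the threshold of 0.05, while 1 alternative in each assay called it (0.0381 for mRNA and 0.0259 for footprints).

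CHRDL1, chordin-like 1, is a secreted antagonist that binds BMP ligands. Its mRNA level was 0.428 and 0.114 CPM in 4EHP-null cells, from 14 and 3 counts, 13.9 and 13.7 CPM in GIGYF1/2-null cells and 3.05 and 2.39 CPM in WT cells. The 4EHP-null value was -3.22 ± 0.35 from WT on the log2 scale, and it was -2.65 without 4EHP-null RNA-seq replicate 2 and -4.52 without 4EHP-null RNA-seq replicate 1, the higher of the pair by a ratio of 3.74 (counting interval 1.05 to 20.3). No footprint was counted in either 4EHP-null library, against 72 and 108 in GIGYF1/2-null and 8 and 18 in WT libraries. With a floor of 3 counts per library, 4EHP-null footprints were at least 3.25-fold lower than in WT cells. CHRDL1 rose in GIGYF1/2-null cells, by 2.35 ± 0.21 on the log2 scale for mRNA (edgeR adjusted p = 3.79e-05) and 2.62 ± 0.29 for footprints (adjusted p = 0.00228). This was the largest change of the 8 genes in that line, and every GIGYF1/2-null library lay above both WT libraries.

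NELL2 is a secreted glycoprotein with thrombospondin and EGF-like domains, known in mouse as a Robo3 ligand that steers commissural axons. The mRNA level was 1.96 and 1.30 CPM in 4EHP-null cells, 45.1 and 44.2 CPM in GIGYF1/2-null cells and 26.9 and 23.3 CPM in WT cells. Footprints were at 0.472 and 0.954 CPM in 4EHP-null cells, 26.6 and 31.2 CPM in GIGYF1/2-null cells and 13.0 and 12.6 CPM in WT cells. No pair of groups overlapped in either assay. 4EHP-null cells differed from WT by -3.92 ± 0.17 for mRNA and -4.10 ± 0.31 for footprints on the log2 scale, a footprint value that was -4.72 without 4EHP-null Ribo-seq replicate 2. NELL2 rose in GIGYF1/2-null cells by 0.83 ± 0.13 for mRNA (edgeR adjusted p = 0.00106) and 1.18 ± 0.17 for footprints (adjusted p = 0.00564). The footprint call was lost without WT Ribo-seq replicate 2 (adjusted p = 0.0654).

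SPOCK1, or testican-1, is a secreted proteoglycan of the extracellular matrix. Its mRNA was counted 26 and 2 times in the 4EHP-null libraries, so the pair differed by a ratio of 10.4 (counting interval 2.61 to 90.7), beyond counting error. In CPM the values were 0.795 and 0.0762 in 4EHP-null, 13.5 and 14.4 in GIGYF1/2-null and 5.59 and 4.36 in WT cells. Both 4EHP-null libraries were below all WT libraries, by -3.39 ± 0.41 on the log2 scale, or -5.95 without 4EHP-null RNA-seq replicate 1 and -2.63 without 4EHP-null RNA-seq replicate 2. Footprints numbered 0 and 1 in 4EHP-null, 53 and 90 in GIGYF1/2-null and 23 and 26 in WT libraries, and the summed 4EHP-null level was 0.0261 times WT (counting interval 6.46e-04 to 0.152). SPOCK1 rose in GIGYF1/2-null cells, by 1.49 ± 0.27 for mRNA (edgeR adjusted p = 0.00295) and 1.35 ± 0.28 for footprints (adjusted p = 0.0342). These calls are the least settled of the set: DESeq2 gave an adjusted p of 0.415 for the mRNA, and the footprint call was lost without WT Ribo-seq replicate 1 (0.0976), WT Ribo-seq replicate 2 (0.249) or GIGYF1/2-null Ribo-seq replicate 2 (0.171).

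ALDH1A2 is the retinaldehyde dehydrogenase that makes retinoic acid in the early embryo. Its mRNA stood at 2.995 and 3.20 CPM in 4EHP-null cells, 41.9 and 41.0 CPM in GIGYF1/2-null cells and 34.8 and 32.6 CPM in WT cells. The footprint level was 1.10 and 2.04 CPM in 4EHP-null, 17.5 and 17.8 CPM in GIGYF1/2-null and 13.3 and 14.4 CPM in WT cells. The mRNA replicates were close, the 4EHP-null footprint pair, from 7 and 15 counts, was less so, and the groups were apart in both assays, with 4EHP-null cells at -3.44 ± 0.13 from WT for mRNA and -3.10 ± 0.27 for footprints on the log2 scale. In GIGYF1/2-null cells the differences were small and did not pass the test, at 0.30 ± 0.10 for mRNA (edgeR adjusted p = 0.0773) and 0.34 ± 0.18 for footprints (adjusted p = 0.346). Of 14 alternatives 3 called the mRNA, among them upper-quartile scaling (adjusted p = 0.0468) and limma-voom (0.0489), and the lowest adjusted p of the 3 was 0.0249.

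BEX5 belongs to the brain-expressed X-linked family of small adaptor-like proteins. It was at 1.56 and 0.914 CPM of mRNA in 4EHP-null cells, 17.6 and 20.8 CPM in GIGYF1/2-null cells and 6.91 and 7.29 CPM in WT cells. Footprints numbered 5 and 1 in 4EHP-null, 64 and 111 in GIGYF1/2-null and 20 and 47 in WT libraries. The 3 groups were apart in both assays. The 4EHP-null difference from WT was -2.49 ± 0.21 for mRNA and -3.06 ± 0.55 for footprints on the log2 scale, and the footprint value was -4.66 without 4EHP-null Ribo-seq replicate 1 and -2.24 without 4EHP-null Ribo-seq replicate 2. BEX5 mRNA rose in GIGYF1/2-null cells by 1.44 ± 0.16 (edgeR adjusted p = 1.51e-04), a call kept in 14 of 14 alternatives of tool, scaling, filter, design or library left out. The footprint difference of 1.23 ± 0.30 did not pass (adjusted p = 0.0585), although 3 of 13 alternatives called it, among them the fit with no filter (1.53e-04) and that without GIGYF1/2-null Ribo-seq replicate 1 (0.0329).

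GFRA3, the receptor that binds the GDNF-family ligand artemin and signals through RET, was the gene with the opposite pattern. Its mRNA level was 16.0 and 15.2 CPM in 4EHP-null cells, 1.14 and 0.848 CPM in GIGYF1/2-null cells and 1.02 and 0.538 CPM in WT cells. Footprints were at 10.1 and 15.5 CPM in 4EHP-null cells, 0.849 and 1.06 CPM in GIGYF1/2-null cells and 1.01 and 0.662 CPM in WT cells. The 4EHP-null footprint pair differed by a ratio of 0.649, replicate 1 over replicate 2 (counting interval 0.470 to 0.889), beyond counting error. The 4EHP-null libraries stood above all others, whereas GIGYF1/2-null and WT libraries overlapped in both assays. On the log2 scale 4EHP-null cells were 4.36 ± 0.24 above WT for mRNA, place 9 from the most positive of the genes tested, and 3.98 ± 0.36 above WT for footprints, place 4. GIGYF1/2-null cells differed from WT by 0.39 ± 0.32 for mRNA (edgeR adjusted p = 0.498) and 0.26 ± 0.52 for footprints (adjusted p = 0.841). Each value turned negative without WT replicate 2 of its assay, at -0.04 for mRNA and -0.07 for footprints.

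**Figure D2:**
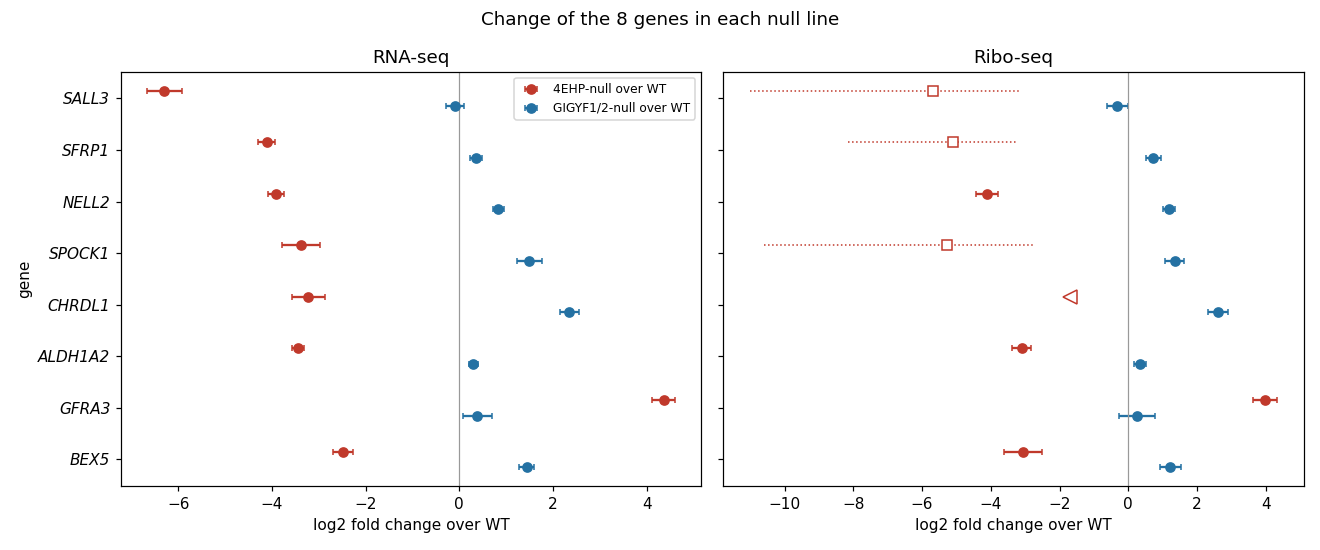
Log2 fold change of the 8 genes over WT in RNA-seq (left) and Ribo-seq (right), with 4EHP-null above GIGYF1/2-null for each gene; filled circles are fitted values with SE bars, open squares are ratios of summed counts with dotted 95% counting intervals where 4EHP-null libraries held 1 to 3 counts in all, and the open triangle is the bound for CHRDL1, which had 0 counts. In 4EHP-null RNA-seq SALL3 lies at -6.29 and GFRA3 at 4.36, and in GIGYF1/2-null cells the values run from -0.09 for SALL3 to 2.35 for CHRDL1.

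Across the 15637 genes tested in RNA-seq, the share called in 4EHP-null against WT was 13.1%, with 6.47% higher and 6.63% lower, and across the 14722 genes tested in Ribo-seq it was 3.04%, with 1.58% higher and 1.46% lower. For the 8 genes nothing is read from these shares, since that contrast chose them. The contrast of GIGYF1/2-null and WT cells was not named in the choice, but the genes were chosen with earlier results of these data known. It also uses the same WT libraries, so the 2 contrasts are not independent. The counts of genes called in it are therefore set beside the shares of all genes as a description only. In it 4 of the 8 genes rose in RNA-seq, NELL2, SPOCK1, CHRDL1 and BEX5, against 5.2% of all genes tested that were called higher, 6.75% called lower and 11.9% called in either direction. In Ribo-seq 3 of the 8 rose, NELL2, SPOCK1 and CHRDL1, against 0.727% of all genes called higher, 1.36% called lower and 2.09% called in either direction. The other members were not called in that contrast. 6 genes, SFRP1, NELL2, SPOCK1, CHRDL1, ALDH1A2 and BEX5, kept 1 order in both assays, with every 4EHP-null library below both WT libraries and every GIGYF1/2-null library above them. GIGYF1/2-null libraries lay above both WT libraries in both assays for 12.2% of the 13257 genes tested in both. The whole order held for 1.49% of them, of which nothing is read, since the 4EHP-null side chose the genes. By level alone the 2 null lines lay on opposite sides of WT for these genes, the 4EHP-null side through their choice. On the GIGYF1/2-null side SFRP1 and ALDH1A2 were not called in either assay.

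Whether footprints changed beyond the mRNA was asked with the interaction of assay and genotype over all 12 libraries, read as a change in translation efficiency. In GIGYF1/2-null against WT cells edgeR called 0 of the 8 genes, 0 had an unadjusted p under 0.05, and DESeq2 and limma-voom likewise called 0. Of the 13257 genes tested, 0.0453% were called. The log2 differences in efficiency ran from -0.22 ± 0.36 for SALL3 to 0.39 ± 0.22 for SFRP1, and the p of SFRP1 before adjustment was 0.0972. In 4EHP-null cells the differences, given without a test, were 0.36 ± 0.32 for ALDH1A2, -0.18 ± 0.48 for NELL2, -0.34 ± 0.56 for GFRA3, -0.58 ± 0.73 for BEX5 and -0.91 ± 0.70 for SFRP1. For SALL3, SPOCK1 and CHRDL1 the 4EHP-null footprints, 1, 1 and 0 in all, are too few for a useful value.

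The ratio of footprint CPM to mRNA CPM, was also taken from counts summed over the libraries of a group. NELL2 had a ratio of 0.440 in 4EHP-null cells (95% counting interval 0.204 to 0.843), 0.656 in GIGYF1/2-null cells (0.599 to 0.718) and 0.513 in WT cells (0.444 to 0.590). ALDH1A2 had 0.521 in 4EHP-null (0.318 to 0.813), 0.426 in GIGYF1/2-null (0.380 to 0.477) and 0.416 in WT cells (0.363 to 0.475). The GFRA3 ratio was 0.832 in 4EHP-null (0.704 to 0.977), 0.984 in GIGYF1/2-null (0.557 to 1.66) and 1.07 in WT cells (0.546 to 1.96), so its footprints stood near its mRNA share in each genotype. In WT cells the ratios of the other 7 genes ran from 0.416 for ALDH1A2 to 0.572 for SPOCK1.

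**Figure D3:**
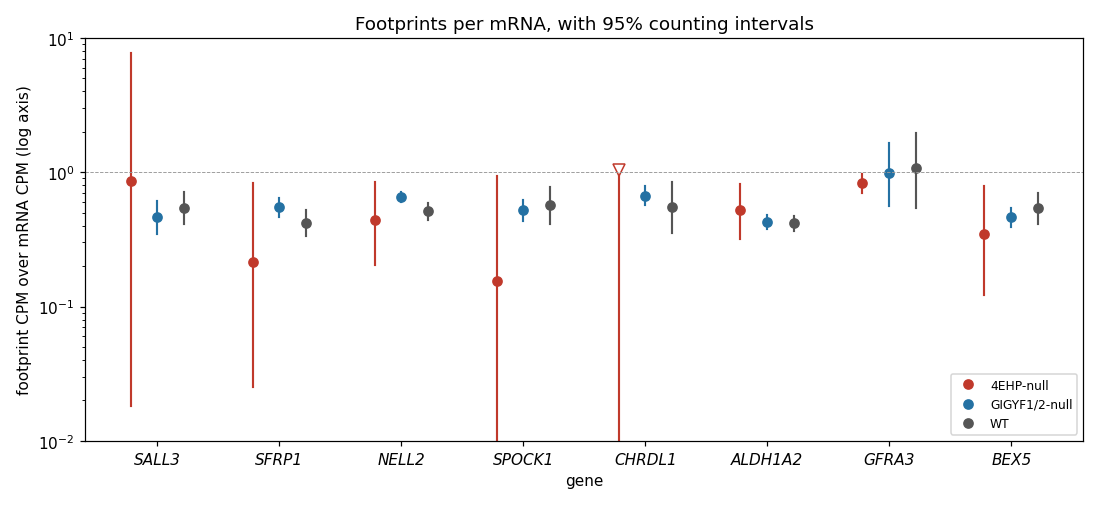
Footprint CPM over mRNA CPM (log axis) for each gene in 4EHP-null, GIGYF1/2-null and WT cells, from counts summed over the 2 libraries, with 95% counting intervals; the open triangle marks the upper limit for CHRDL1 in 4EHP-null cells, where no footprint was counted. The 4EHP-null intervals of the low genes are wide, as for SALL3 with 1 footprint. That of GFRA3 is narrow, from 0.704 to 0.977, while its WT interval is wide, from 0.546 to 1.96.

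The genes that share a pathway or family with the 8 were tested next, in 13 lists from which the 8 genes themselves were left out. The lists were drawn up with earlier results of these data known, so nothing is read from an excess over the shares of all genes. In 4EHP-null RNA-seq 13 rose and 12 fell of the 110 list genes tested, or 22.7%, with a median log2 fold change of -0.0085, against 13.1% and a median of -0.003 over all genes. In GIGYF1/2-null RNA-seq 17 rose and 7 fell of the 110, or 21.8%, with a median of 0.090, against 11.9% and a median of 0.0052 over all genes. In Ribo-seq 2 rose and 4 fell of 95 in 4EHP-null cells, or 6.32%, against 3.04% of all genes, and 4 of 95 rose in GIGYF1/2-null cells, or 4.21%, against 0.727% of all genes called higher and 2.09% called in either direction. The 6 calls in 4EHP-null Ribo-seq came to between 1 and 3 without either WT or either 4EHP-null library. The list genes called in 4EHP-null mRNA thus split almost evenly by direction. Leaving out 1 RNA-seq library brought the 25 calls in 4EHP-null RNA-seq down to between 11 and 16 when the library was either WT or either 4EHP-null one.

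Around SFRP1, 4 of the 7 tested secreted Wnt antagonists rose in 4EHP-null mRNA, the direction opposite to SFRP1. SOSTDC1 rose by 1.498 ± 0.316 (edgeR adjusted p = 0.00840) and DKK1, which blocks the LRP coreceptors, by 0.94 ± 0.22 (adjusted p = 0.0151). Both calls were lost without WT RNA-seq replicate 1, SOSTDC1 also without WT replicate 2, and DKK1 also without 4EHP-null replicate 1. In 4EHP-null Ribo-seq edgeR called 0 of the 3 antagonists tested. SFRP5, another SFRP gene, lay at -1.46 ± 0.57 in 4EHP-null mRNA and was not called (edgeR adjusted p = 0.119). Among the other Wnt genes tested, WNT3A, a canonical ligand, fell to 0.927 ± 0.288 CPM in 4EHP-null cells, against 4.24 ± 0.62 CPM in WT cells (SD, n = 2 each), a log2 fold change of -2.17 ± 0.26 (adjusted p = 2.32e-04). FZD10, a frizzled receptor, fell to 2 and 4 counts in the 4EHP-null libraries, against 39 and 88 in the WT libraries (log2 fold change -4.14 ± 0.53, adjusted p = 4.07e-04). The mRNA calls of WNT3A and FZD10 held in 14 of 14 alternatives. No FZD10 footprint was counted in 4EHP-null cells, against 10 and 18 in WT cells, and WNT3A footprints numbered at most 1 per 4EHP-null library, against 14 and 17. In GIGYF1/2-null mRNA NOTUM, a secreted enzyme that inactivates Wnt proteins, rose by 2.67 ± 0.46 (adjusted p = 0.00235). NOTUM was also called higher in 4EHP-null mRNA, at 1.79 ± 0.49 (edgeR adjusted p = 0.0307), and had 4 to 10 counts per WT library.

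For the BMP pathway of CHRDL1, 1 of 10 tested antagonists rose and 2 fell in 4EHP-null mRNA. BMPER fell by 1.48 on the log2 scale (SE 0.35, edgeR adjusted p = 0.0146) and NOG, which encodes noggin, fell by 0.95 (SE 0.27, adjusted p = 0.0353). The NOG call was lost without any single WT or 4EHP-null library, and that of BMPER without either WT library or 4EHP-null replicate 1. Of 11 ligands 1 rose and 2 fell: BMP2 stood at 0.698 ± 0.036 CPM in 4EHP-null cells, against 2.80 ± 0.84 CPM in WT cells (log2 fold change -2.01 ± 0.32, adjusted p = 0.00171, kept in 14 of 14 alternatives). Of the receptors and SMADs, BMPR1A alone of 12 was called, at -0.46 ± 0.09 (adjusted p = 0.00566). That call was lost without WT RNA-seq replicate 1 or 4EHP-null replicate 2. In GIGYF1/2-null mRNA BMPER was also called lower, at -1.29 ± 0.335 (edgeR adjusted p = 0.0256). This BMPER call was lost with DESeq2 and without any single WT or GIGYF1/2-null library.

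Beside ALDH1A2, 1 of 9 tested genes of retinoic acid synthesis, transport and breakdown rose and 1 fell in 4EHP-null mRNA. The gene that fell was DHRS3, at -1.33 ± 0.27 (edgeR adjusted p = 0.00624). That call was lost without WT RNA-seq replicate 2 or 4EHP-null replicate 1. In GIGYF1/2-null mRNA 4 of these 9 rose and 0 fell, against 11.9% of all genes called in either direction. CRABP2, which carries retinoic acid to the nucleus, was at 43.3 ± 2.45 CPM in 4EHP-null, 37.7 ± 5.86 CPM in GIGYF1/2-null and 18.3 ± 0.47 CPM in WT cells (SD, n = 2 each). It rose in both null lines, by 1.24 ± 0.12 in 4EHP-null (edgeR adjusted p = 4.76e-05) and 1.05 ± 0.12 in GIGYF1/2-null cells (adjusted p = 2.12e-04). RARB, a retinoid receptor whose gene is a textbook retinoic acid target, had 0.908 ± 0.117 CPM in 4EHP-null, 4.10 ± 0.38 CPM in GIGYF1/2-null and 5.19 ± 0.68 CPM in WT cells. Its 4EHP-null mRNA fell by 2.52 on the log2 scale (SE 0.24, adjusted p = 3.49e-05), and its footprints numbered 1 and 2 in the 4EHP-null libraries, against 31 and 46 in WT. CYP26A1, which degrades retinoic acid and is itself induced by it, did not pass the test in 4EHP-null mRNA (-0.34 ± 0.19, adjusted p = 0.274). It rose in GIGYF1/2-null cells, to 10.1 CPM in each library, against 3.32 and 3.98 CPM in WT (log2 fold change 1.46 ± 0.17, adjusted p = 2.11e-04). RXRG rose in the same line by 1.58 ± 0.29 (adjusted p = 0.00353), a call lost without GIGYF1/2-null RNA-seq replicate 2.

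In the GDNF family, 1 of 5 tested ligands and receptors rose and 1 fell in 4EHP-null mRNA. GFRA1 rose in both null lines, by 0.59 ± 0.14 in 4EHP-null (edgeR adjusted p = 0.0153) and 1.17 ± 0.14 in GIGYF1/2-null mRNA (adjusted p = 2.12e-04). The first of these was lost without WT RNA-seq replicate 2 or 4EHP-null replicate 1. RET, the shared signalling receptor, fell by 0.88 in 4EHP-null mRNA (SE 0.25, adjusted p = 0.0329), a call lost without either WT library or 4EHP-null replicate 2. ARTN, which encodes the GFRA3 ligand artemin, had 7 and 16 mRNA counts in the 4EHP-null libraries, 35 and 36 in GIGYF1/2-null and 6 and 13 in WT libraries. The ARTN counts of 4EHP-null and WT libraries overlapped, and the ARTN difference in GIGYF1/2-null cells (log2 fold change 1.92 ± 0.46, adjusted p = 0.0179) was lost without any single WT or GIGYF1/2-null library.

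Close relatives of the 8 genes did not share 1 pattern. NELL1, the paralog of NELL2, was low in 4EHP-null and high in GIGYF1/2-null cells as NELL2 was, at 0.198 ± 0.065 CPM in 4EHP-null, 2.38 ± 0.31 CPM in GIGYF1/2-null and 0.829 ± 0.310 CPM in WT mRNA. Its changes were -2.03 ± 0.49 in 4EHP-null (edgeR adjusted p = 0.0164) and 1.49 ± 0.35 in GIGYF1/2-null mRNA (adjusted p = 0.0154). The first was lost without WT RNA-seq replicate 2 or either 4EHP-null library, and the second without WT replicate 1 or either GIGYF1/2-null library. SPOCK3, a paralog of SPOCK1, went the other way in 4EHP-null cells, with 9.64 ± 0.32 CPM, against 3.67 ± 0.14 CPM in GIGYF1/2-null and 2.90 ± 0.27 CPM in WT mRNA. It rose by 1.73 ± 0.17 in 4EHP-null mRNA (adjusted p = 3.96e-05, kept in 14 of 14 alternatives). Of the other 3 SALL genes edgeR called 0 in 4EHP-null mRNA, with 0 at an unadjusted p under 0.05 and 0 by DESeq2 or limma-voom. Of 10 tested BEX and TCEAL genes TCEAL3 alone was called in 4EHP-null mRNA, at 0.70 ± 0.19 (adjusted p = 0.0278), and that call was lost without any single WT or 4EHP-null library. In GIGYF1/2-null mRNA 4 of these 10 rose, among them BEX2 by 0.82 ± 0.14 (adjusted p = 0.00246), a call lost without WT RNA-seq replicate 1. TCEAL3 was another of these 4, at 0.66 ± 0.19 (edgeR adjusted p = 0.0362).

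**Figure D4:**
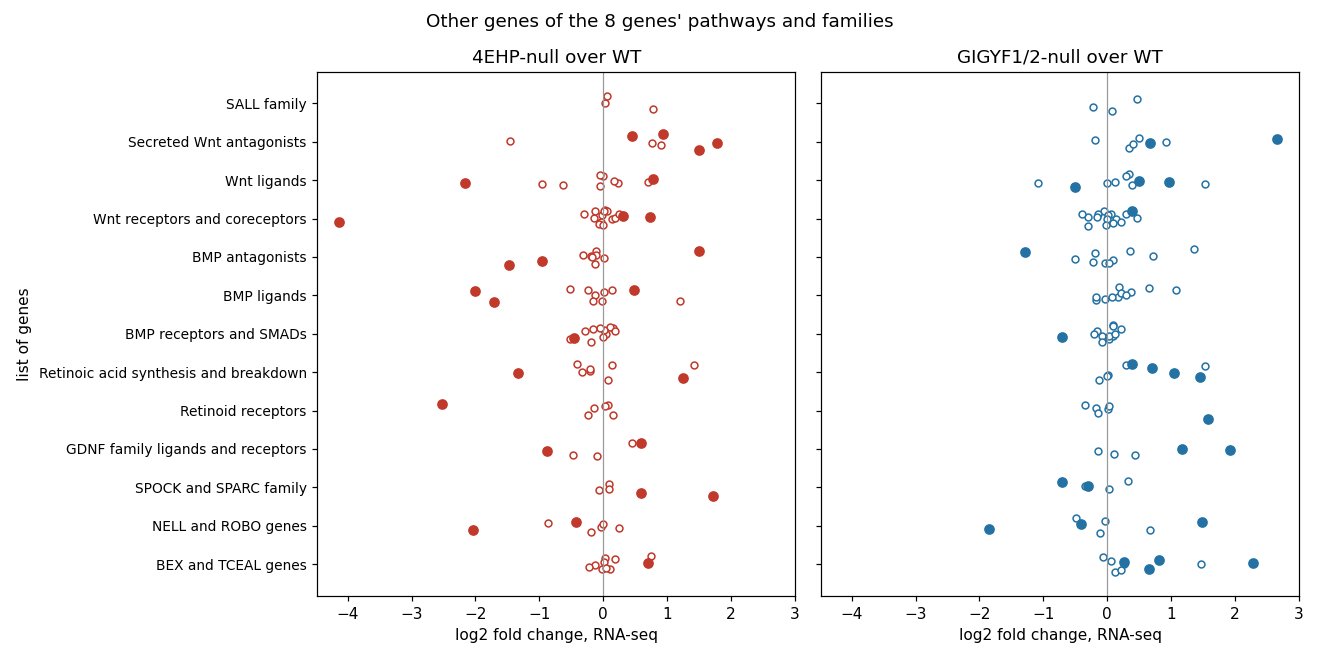
Log2 fold change in RNA-seq of the list genes, 1 point per gene and list, in 4EHP-null over WT (left) and GIGYF1/2-null over WT (right), filled where the edgeR adjusted p was under 0.05; vertical scatter within a list only separates points. In 4EHP-null cells 13 genes rose and 12 fell, with FZD10 at -4.14, RARB at -2.52 and SPOCK3 at 1.73.

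Position was examined through the 3 nearest tested genes on each side of each of the 8, in the RefSeq gene order, which matched 94.7% of the symbols in the count tables. Of these 48 neighbours 4 rose and 3 fell in 4EHP-null mRNA, or 14.6%, against 13.1% of all genes, and their median log2 fold change was -0.02. In GIGYF1/2-null mRNA the neighbours called were MBP, FBXL21, PAK3, CAPN6 and SLTM, all higher, and each of these calls was lost without at least 1 library. Of all genes 5.2% were called higher in that contrast and 11.9% in either direction. SPOCK1 and GFRA3 lie on chromosome 5 with 9 tested genes between them, of which edgeR, DESeq2 and limma-voom each called 0, with 0 at an unadjusted p under 0.05. PAK3, a p21-activated kinase gene next to CHRDL1 on the X chromosome, had 5 and 5 mRNA counts in the 4EHP-null libraries, 62 and 71 in the GIGYF1/2-null libraries and 19 and 29 in the WT libraries. It fell by 2.05 in 4EHP-null (SE 0.47, edgeR adjusted p = 0.0133) and rose by 1.49 ± 0.33 in GIGYF1/2-null cells (adjusted p = 0.0119), the directions of CHRDL1. The first call was lost without WT RNA-seq replicate 2 or either 4EHP-null library, and the second without either WT library or GIGYF1/2-null replicate 2. TMSB15A, the neighbour of BEX5, fell by 0.85 in 4EHP-null cells (SE 0.16, adjusted p = 0.00413), and PLEKHA2, the third gene from SFRP1, rose by 0.79 ± 0.13 (adjusted p = 0.00237), both kept in 14 of 14 alternatives. The other neighbours called in 4EHP-null mRNA were ANO6, ARMCX5-GPRASP2, SLTM and KDM3B, with log2 fold changes between -0.37 and 0.52. Each of these 4EHP-null calls was lost without at least 1 library. Fewer calls, 2 to 4, were left among the 48 when either WT or either 4EHP-null library was left out.

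**Figure D5:**
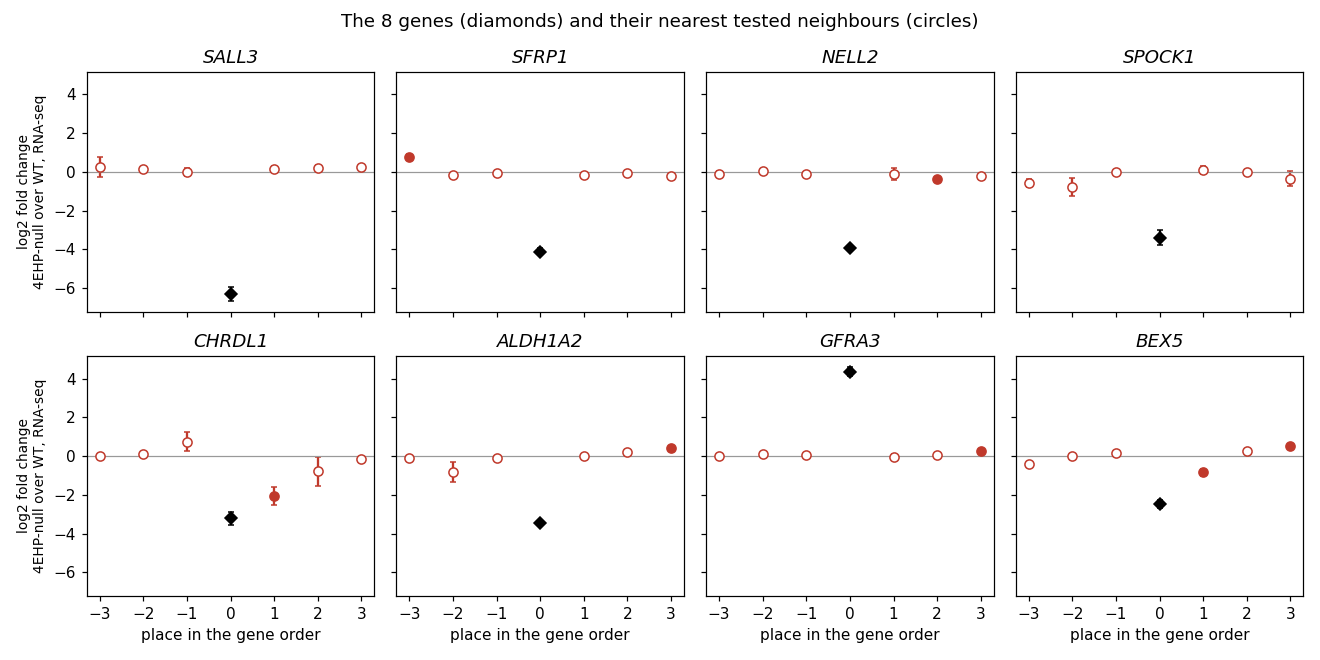
Log2 fold change ± SE of 4EHP-null over WT in RNA-seq for each of the 8 genes (diamond, place 0) and its 3 nearest tested genes on each side in the gene order (circles, filled where called). The lowest neighbour is PAK3, at -2.05 beside CHRDL1, and the diamonds lie at -2.49 or below, or at 4.36 for GFRA3.

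Other genes were ranked by how like their profile over the 12 libraries was to each of the 8, as the root mean square distance of log2 CPM values centred within each assay, over 13257 genes. The nearest genes to SFRP1 were NELL2 at a distance of 0.31 and ALDH1A2 at 0.43, where the median distance of all genes was 1.98. SPOCK1 and CHRDL1 lay 0.55 apart, and SPOCK1 was nearest to NELL2, at 0.49. Of the 24 nearest places, 12 were held by other genes of the 8, from which nothing is read, since the distances include the 4EHP-null libraries whose levels chose the genes. Nearest to SALL3 were GALC at 0.54, a lysosomal galactosylceramidase gene with 0 and 2 mRNA counts in the 4EHP-null libraries, against 137 and 150 in WT, and MUM1L1 at 0.55. ALDH1A2 lay nearest to TSC22D3 at 0.26, a glucocorticoid-induced gene, and EYA1 at 0.30, which had 0.939 ± 0.142 CPM in 4EHP-null, 12.3 ± 0.2 CPM in GIGYF1/2-null and 9.75 ± 0.70 CPM in WT mRNA. BEX5 lay nearest to CELF2 at 0.35, SATB1 at 0.42 and GLA at 0.50, the last with 54.8 ± 1.97 CPM in 4EHP-null, 489 ± 52.5 CPM in GIGYF1/2-null and 224 ± 8.05 CPM in WT mRNA. GFRA3 lay nearest to BST2 at 0.35, which encodes tetherin and had 80.7 ± 4.66 CPM in 4EHP-null, 4.48 ± 0.11 CPM in GIGYF1/2-null and 4.34 ± 0.66 CPM in WT mRNA. The distances are a description over libraries that share their genotypes.

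The authors' deposited table for RNA-seq lists 7 of the 8 genes among 11268, and SALL3 is not one of those listed. Its log2 fold changes for 4EHP-null over WT run from -4.12 for SFRP1 to 4.35 for GFRA3. The authors' deposited table for Ribo-seq lists 6 of the 8, without SALL3 and SPOCK1, and gives CHRDL1 at -6.52 in 4EHP-null over WT, a value set against 0 footprint counts and so no bound. In the authors' deposited table of translation efficiency the values of the 6 listed genes for GIGYF1/2-null over WT run from -0.15 for BEX5 to 0.40 for SFRP1.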

How the data were processed

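RNA-seq and Ribo-seq counts per gene were analysed for 3 genotypes of HEK293T cells, 2 libraries each per assay. Per the labels' protocols, RNA libraries came from a TruSeq RNA kit on total RNA; footprints followed a published Ribo-seq procedure. The submitters' processing notes name Bowtie2, TopHat2, edgeR and build hg19, and no label or header states the counting tool or whether it used strand, so reads of overlapping or antisense genes could not be told apart. Raw counts per gene were used as the authors deposited them. From the authors' deposited comparison tables the log2 fold changes were read for description only; the p-values and q-values, ratio columns and score columns that the authors deposited there were not used.

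Counts were filtered (filterByExpr), scaled by TMM and tested with edgeR 4.0.16 (glmQLFit, glmQLFTest, two-sided, R 4.3.3), the 3 genotypes sharing 1 spread, with Benjamini-Hochberg adjustment over all genes tested and a threshold of 0.05. Translation efficiency was the interaction over 12 libraries. The scripts were tested on simulated data. Alternatives were DESeq2 1.42.0 (whose missing adjusted p-values stayed missing), limma-voom (limma 3.58.1), upper-quartile and DESeq2-type scaling, no filter and a stricter one, only the genotypes compared, a replicate block, and leaving out each library. Counting intervals are exact (95%), and the floor is 3 counts per library. Log2 CPM for likeness used a prior count of 2. The RefSeq table, of another build, gave only names, gene order and, from its promoter table, the windows printed. Members and lists were chosen with earlier results of these data known; 1 list gene is not reported here. All members were named, with up to 2 called genes per list and direction by smallest adjusted p, the called neighbours and the 3 genes nearest in profile.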

Additional observations from a re-analysis of the deposited data

Results flagged for a closer look

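For SFRP1, NELL2, SPOCK1, CHRDL1, ALDH1A2 and BEX5 every 4EHP-null library lay below both WT libraries in both assays, as the genes were chosen. For the same genes every GIGYF1/2-null library lay above both WT libraries in both assays. The difference between the 2 null lines was not tested, since 4EHP-null values chose the genes. In RNA-seq the mean level in GIGYF1/2-null minus that in 4EHP-null cells was 14.4 CPM for SFRP1, 43.0 CPM for NELL2, 13.5 CPM for SPOCK1, 13.5 CPM for CHRDL1, 38.4 CPM for ALDH1A2 and 18.0 CPM for BEX5. In Ribo-seq it was 8.10 CPM for SFRP1, 28.2 CPM for NELL2, 7.13 CPM for SPOCK1, 9.14 CPM for CHRDL1, 16.1 CPM for ALDH1A2 and 8.33 CPM for BEX5. SFRP1 and ALDH1A2 were not called by edgeR in GIGYF1/2-null against WT in either assay, though a replicate block called the mRNA of both and SFRP1 footprints.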

How the results depend on the processing

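The members' 4EHP-null values kept their direction in every alternative run. Of the 8 genes, 4 were called in GIGYF1/2-null RNA-seq and 3 to 6 under the alternatives; in Ribo-seq 3 were called, 1 with DESeq2 (which gave an adjusted p to 2 of them), 5 with a replicate block, and 1 to 4 when a library was left out. List genes called in 4EHP-null Ribo-seq were 6, against 10 with no filter, 10 with a replicate block and 1 to 8 when a library was left out; in RNA-seq they were 25, and 11 to 25 when a library was left out. Neighbours called were 7, and 2 to 7. In GIGYF1/2-null cells the replicate block called, beside the genes called without it, the mRNA of SFRP1 (adjusted p = 0.0381) and ALDH1A2 (0.0249) and the footprints of SFRP1 (0.0259) and BEX5 (2.84e-04). The block rests on a number with no shared origin in the labels: same-numbered libraries' deviations correlated by 0.0701 to 0.180 in RNA-seq and 0.149 to 0.314 in Ribo-seq. Leaving out a library moved GIGYF1/2-null values across 0 for SALL3 mRNA (-0.19 to 0.006), GFRA3 mRNA (-0.041 to 0.87) and GFRA3 footprints (-0.065 to 0.55), none of which was called; the cause was not tested. GFRA3 footprints were under the filter when only GIGYF1/2-null and WT were fitted. Footprint counts of 0 to 15 per 4EHP-null library limit what can be said of translation there for every gene but GFRA3. For GFRA3 the limit lies in WT cells, with 7 footprints in each library.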
